A study of Mus musculus with 6 samples.

Results

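Keratins are the intermediate filament proteins of epithelial cells, and the genes analysed here were all those whose platform gene symbol is Krt followed by a number and at most 1 letter from a to c. The rule found 48 keratin genes among 18193 genes with a probe set. Urinary bladders of mouse embryos had been collected at embryonic day 18.5, with 3 arrays of Get1 -/- (null) animals and 3 of Get1 +/- (heterozygous) animals, numbered 1 to 3 and 4 to 6 in their titles. Get1 is the gene Grhl3, whose product is a transcription factor of covering epithelia, and the series asked about the defects of the null bladder. The heterozygous animals carry 1 null allele themselves, and no wild-type group was analysed here. The sources used here do not give the strain, how the allele was made, whether bladders were pooled or whether arrays came from separate animals, so p-values measure only the spread between these arrays. The titles carry a further number of unstated meaning, 1 for null 1 and 2 for the other 5 arrays, so values without null 1 are given where that array moved a difference by over 1.5 times and for Krt6a, Krt19, Krt15 and Krt18.

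A keratin filament is built from pairs of a type I and a type II chain, and epithelia are told apart by the pairs they make. In the urothelium, the lining of the bladder, basal cells make Krt5 and a share of them Krt14, all layers make the simple keratins Krt7, Krt8, Krt18 and Krt19, and the umbrella cells at the surface make Krt20. Simple epithelia such as gut lining also make Krt8, Krt18, Krt19 and Krt20. Krt6a, Krt6b, Krt16 and Krt17 appear when stratified epithelia are injured or proliferate. The 48 genes were grouped as 6 simple, 3 basal, 4 stress and 30 hair or epidermal keratins. A further 4 keratins of moist stratified linings, here called mucosal, and the keratin-like gene Krt222 fell in none of these groups and are given apart. In the gene table of assembly GRCm38.p6 the genes lie on chromosomes 11 and 15.

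The values are probe set signals on a linear scale with arbitrary units. Each gene was read from its brightest probe set, and levels and differences are on the scale log2(signal + 16), null minus heterozygous. Among the tested keratins, the brightest probe sets of Krt4, Krt8, Krt14 and Krt42 have names ending in _x_at, so they can match other transcripts. A gene was tested when its mean over all 6 arrays was above the lowest 30% of genes (a log2 level of 5.80). Array medians of the signal were 58.2 to 70.4 for null and 64.1 to 72.4 for heterozygous bladders. The Grhl3 probe set had signals of 76.6, 21.5 and 120 on the null arrays, against 143, 133 and 126 on the heterozygous arrays (difference −0.95, limma adjusted p = 0.655). The number of arrays limits the precision.

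Of the 48 keratins 22 passed the filter on dim genes, and 26 did not. None of the 22 passed limma's test after Benjamini-Hochberg adjustment over the 12735 genes tested, where 0.448% of genes were called higher and 0.0628% lower in null. At an unadjusted p under 0.05 the null level was higher for 3 keratins, Krt6a, Krt19 and Krt15 (13.6% of 22, against 3.63% of all genes tested), and lower for 1, Krt10 (4.55%, against 4.30%). All null arrays lay above all heterozygous arrays for the same 3 keratins (13.6%, against 6.07% of all genes tested) and below them for 3, Krt10, Krt18 and Krt79 (13.6%, against 7.36%). The median difference of the 22 was 0.03, beside −0.03 for all genes tested, and 12 differences were above 0 and 10 below.

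**Figure D1:**
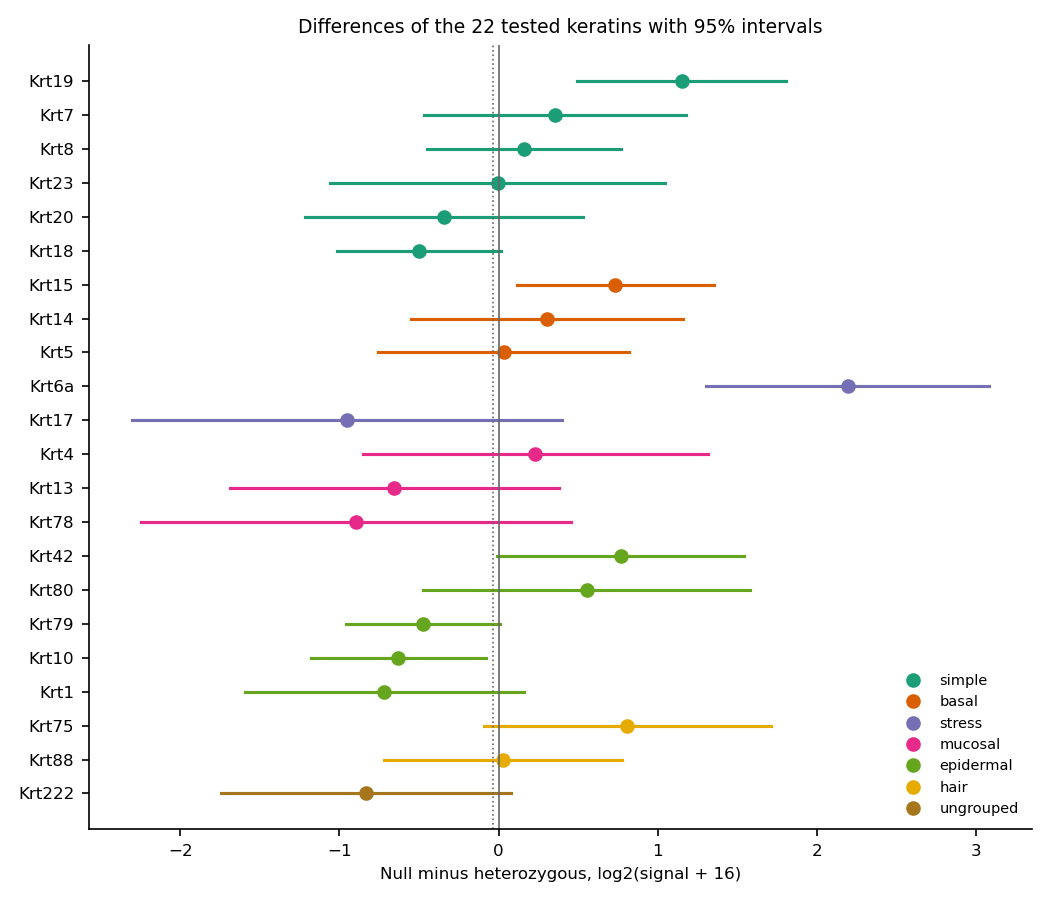
Each point is the null minus heterozygous difference of a tested keratin on the log2(signal + 16) scale, with its 95% interval from the limma fit over all genes (3 arrays per group) and coloured by keratin group; the dotted line is the median of all genes tested, −0.03. Krt6a lies at 2.19, apart from the other 21, which lie between −0.95 and 1.15.

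Krt6a, the type II keratin of activated stratified epithelium, had the highest difference of the family. Signals of 1746, 2829 and 1652 were read on the null arrays, against 345, 300 and 752 on the heterozygous arrays. The lowest null array was above the highest heterozygous array, heterozygous 6. The log2 level was 10.99 ± 0.42 in null bladders, against 8.80 ± 0.69 in heterozygous ones (SD over 3 arrays each), a difference of 2.19 (SE 0.38, 95% interval 1.30 to 3.08), or 4.57-fold. Its adjusted p over all genes was 0.0826 (limma), and the exact permutation p of 0.1 is the smallest that 3 against 3 arrays can give. Without heterozygous 6 the difference was 2.59 and passed the test (adjusted p = 0.0223, limma). Without null 1 it was 2.29. With any 1 of the other 5 arrays left out, null 1 included, it did not pass, with adjusted p from 0.169 to 0.282 (limma).

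Krt6a was read by 3 probe sets. The second probe set had signals of 681, 776 and 492 on the null arrays, against 104, 141 and 173 on the heterozygous arrays, a difference of 2.10. The third, whose name ends in _x_at and which can therefore match other transcripts, had 245, 304 and 260 on the null arrays, against 39.0, 83.4 and 145 on the heterozygous arrays, a difference of 1.57. All null arrays were above all heterozygous arrays in each of the 3 probe sets. With the 3 averaged, the difference was 1.95 (adjusted p = 0.0345, limma).

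**Figure D2:**
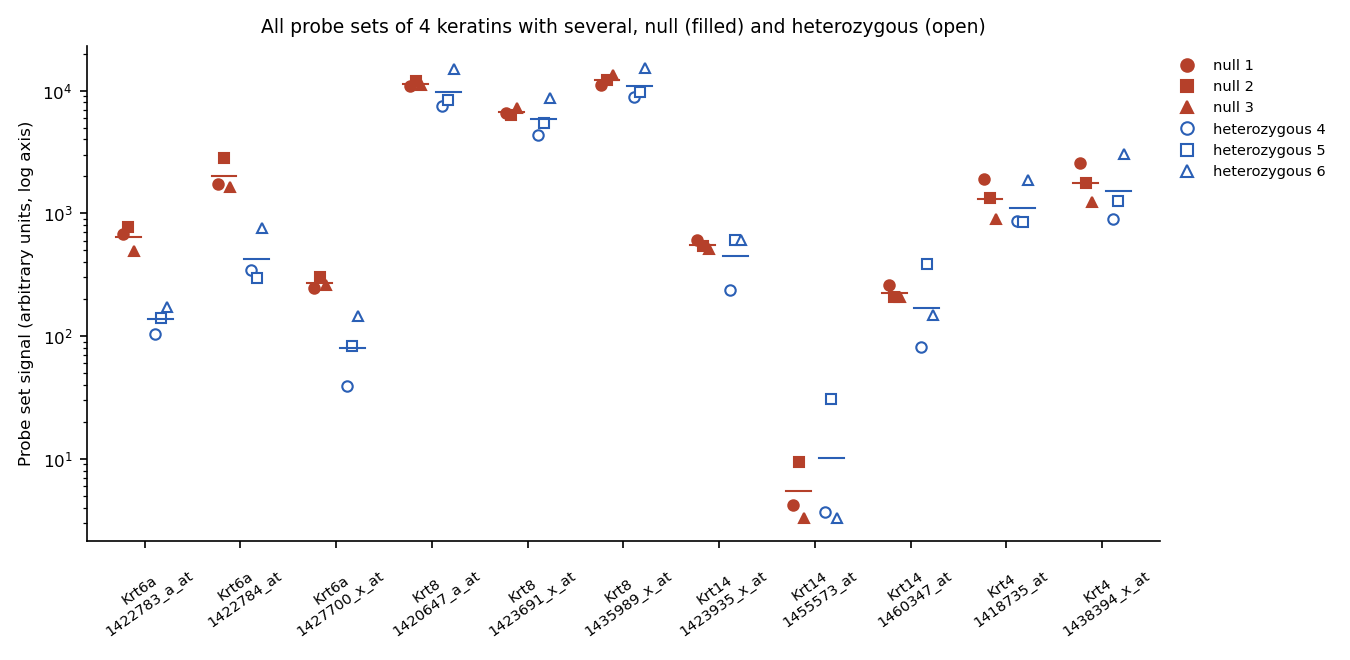
Signals (log axis, arbitrary units) of every probe set of Krt6a, Krt8, Krt14 and Krt4, with filled symbols for the 3 null arrays and open symbols for the 3 heterozygous arrays; bars are means taken on the log2(signal + 16) scale. The 3 Krt6a probe sets separate the groups, while those of the other 3 keratins overlap.

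The other stress keratins had overlapping groups. Krt17, a type I keratin of basal and wounded epithelium, had signals of 43.7, 83.3 and 151 on the null arrays, against 63.98, 247 and 326 on the heterozygous arrays. The groups overlapped, and the level was 6.64 ± 0.74 in null bladders, against 7.59 ± 1.12 in heterozygous ones (SD over 3 arrays each, difference −0.95, limma adjusted p = 0.765). The difference was −1.59 without heterozygous 4, −0.58 without null 1 and −0.54 without heterozygous 6. A second probe set of Krt17, a dim one, gave −0.17. Krt6b, a close paralogue of Krt6a, and Krt16, a type I partner of both, were among the dim genes. Krt6b had signals of 19.9, 43.5 and 4.31 on the null arrays, against 12.96, 1.39 and 1.53 on the heterozygous arrays. Krt16 had 0.986, 20.4 and 33.6 on the null arrays, against 3.84, 1.504 and 2.04 on the heterozygous arrays. For Krt6b and Krt16 alike, null 2 and at least 1 other null array were above every heterozygous array and the remaining null array was not above all of them. Krt6a and Krt6b are close in sequence, and whether the probe sets read both was not tested.

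**Figure D3:**
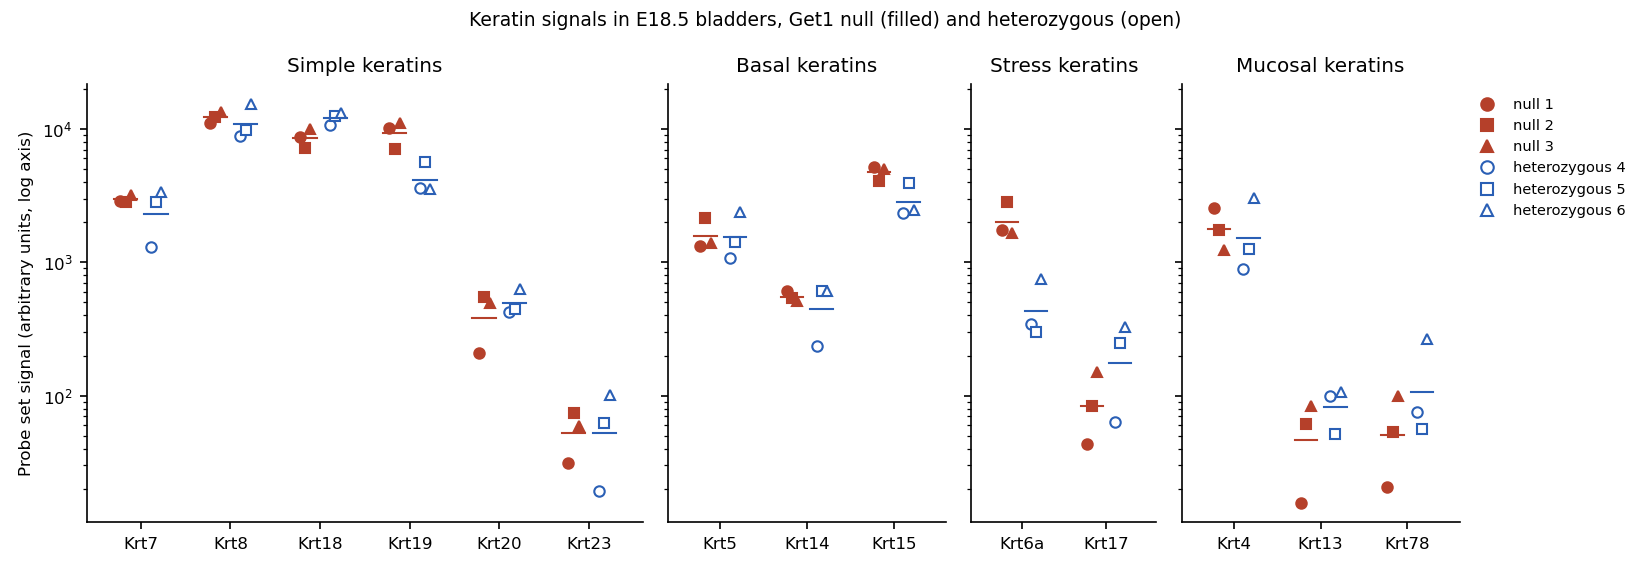
Signals (log axis, arbitrary units) of the tested simple, basal, stress and mucosal keratins on each of the 6 arrays, with null (filled, left) and heterozygous (open, right) for each gene and bars for means taken on the log2(signal + 16) scale. Krt6a, Krt19 and Krt15 have all null arrays above all heterozygous arrays, and Krt18 has them all below.

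All 6 simple keratins were tested, and 0 passed. Krt19, the smallest type I keratin, which has almost no tail domain and is made in simple epithelia and urothelium, had signals of 10085, 7062 and 11096 on the null arrays, against 3616, 5641 and 3533 on the heterozygous arrays. Its level was 13.18 ± 0.34 in null bladders, against 12.03 ± 0.38 in heterozygous ones (SD over 3 arrays each, difference 1.15, SE 0.28, 2.22-fold, limma adjusted p = 0.28). The groups did not overlap, and with 1 array left out the difference stayed between 1.02 and 1.37 (1.09 without null 1).

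Krt18, the type I partner of Krt8, had its lower values on the null arrays. Signals of 8745, 7186 and 9952 were read on the null arrays, against 10696, 12570 and 13143 on the heterozygous arrays. Every null array was below every heterozygous array. The level was 13.06 ± 0.24 in null bladders, against 13.56 ± 0.16 in heterozygous ones (SD over 3 arrays each, difference −0.50, SE 0.22, 95% interval −1.01 to 0.02, limma adjusted p = 0.633), and without null 1 the difference was −0.51.

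Krt8, the type II partner, had signals of 11070, 12279 and 13454 on the null arrays, against 8803, 9762 and 15261 on the heterozygous arrays. The groups overlapped, with heterozygous 6 above all null arrays, and the difference was 0.16 (95% interval −0.45 to 0.77, limma adjusted p = 0.943). The other probe sets of Krt8 gave 0.21 and 0.19. Without heterozygous 6 the difference was 0.40, and without heterozygous 4, heterozygous 5 or null 3 it was 0.0027, 0.077 or 0.091. The log2 difference between Krt8 and Krt18 within an array was 0.34, 0.77 and 0.43 on the null arrays, against −0.28, −0.36 and 0.22 on the heterozygous arrays. The groups did not overlap in this ratio, which averaged 0.52 ± 0.23 in null bladders, against −0.14 ± 0.31 in heterozygous ones (SD over 3 arrays each). Since different probe sets have different responses, only the shift of 0.66 between the groups can be read from it. The exact permutation p was 0.1 (0.4 adjusted over the 4 partner pairs compared). The separation depended on the Krt8 probe set, here the brightest. With the Krt8 probe set whose name does not end in _x_at, null 3 lay below heterozygous 6, so the groups overlapped. Its signals on these arrays were 11111 and 14935, against 9952 and 13143 for Krt18. With the remaining Krt8 probe set the groups stayed separate.

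The partner pairs Krt5 with Krt14, Krt4 with Krt13 and Krt1 with Krt10 had shifts of −0.27, 0.88 and −0.09 in the same ratio, and their groups overlapped. The exact permutation p was 0.6, 0.5 and 0.9.

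Krt7, the type II keratin of simple glands and urothelium, had signals of 2866, 2836 and 3211 on the null arrays, against 1302, 2826 and 3367 on the heterozygous arrays (difference 0.36, limma adjusted p = 0.877). Heterozygous 4 was low, and the other arrays lay close together; without heterozygous 4 the difference was −0.06. Krt20, the umbrella cell keratin, had signals of 208, 547 and 495 on the null arrays, against 425, 447 and 632 on the heterozygous arrays (difference −0.35, 95% interval −1.22 to 0.53, limma adjusted p = 0.889). Null 1 was the low array, and without it the difference was 0.07. Krt23, a type I keratin of glandular epithelia, had 31.2, 73.7 and 59.4 on the null arrays, against 19.2, 62.8 and 101 on the heterozygous arrays (difference −0.01, limma adjusted p = 0.998), and without null 1 the difference was 0.26. The groups overlapped throughout for Krt7, Krt20 and Krt23. The median over the 6 simple keratins was 0.08, and −0.25 without heterozygous 4.

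The 3 basal keratins all had a difference above 0, and 0 passed. Krt15, a type I keratin of basal cells, had signals of 5185, 4042 and 5043 on the null arrays, against 2340, 3949 and 2473 on the heterozygous arrays. The lowest null array lay just above the highest heterozygous array, and the level was 12.21 ± 0.20 in null bladders, against 11.48 ± 0.41 in heterozygous ones (SD over 3 arrays each, difference 0.73, SE 0.27, limma adjusted p = 0.543), and without null 1 the difference was 0.67. Krt14, which marks a subset of basal cells, had signals of 609, 543 and 512 on the null arrays, against 235, 610 and 608 on the heterozygous arrays (difference 0.30, limma adjusted p = 0.909). Krt5, the type II keratin of basal cells, had 1318, 2152 and 1391 on the null arrays, against 1083, 1432 and 2381 on the heterozygous arrays (difference 0.03, 95% interval −0.76 to 0.82, limma adjusted p = 0.995). The other probe sets of Krt14 gave −0.29, for a dim one, and 0.37. Groups overlapped for Krt14 and Krt5, and without heterozygous 4, the lowest array for both, their differences were −0.14 and −0.22; without null 1 that of Krt5 was 0.16. The basal median was 0.30, and −0.14 without heterozygous 4.

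Of the 4 mucosal keratins 3 were tested, and 0 passed. Krt4, the type II keratin of moist stratified linings such as the oesophagus, had signals of 2546, 1758 and 1240 on the null arrays, against 892, 1262 and 3039 on the heterozygous arrays (difference 0.23, limma adjusted p = 0.954). Krt13, its type I partner and a keratin of urothelium below the umbrella cells, had 15.8, 61.3 and 83.0 on the null arrays, against 99.4, 51.7 and 106 on the heterozygous arrays (difference −0.66, limma adjusted p = 0.796). Krt78, a type II keratin of stratified epithelia, had 20.6, 53.7 and 99.0 on the null arrays, against 75.4, 56.6 and 268 on the heterozygous arrays (difference −0.89, limma adjusted p = 0.782). The groups overlapped for all 3 genes, and for Krt13 and Krt78 null 1 was the lowest array. With 1 array left out the Krt13 difference was −0.99 (without null 3) to −0.17 (without null 1). The Krt78 difference was −1.29 (without null 3) to −0.29 (without heterozygous 6), and −0.46 without null 1. The other probe set of Krt4 gave 0.24. Those of Krt13 gave 0.25 and 0.45, but both were dim (signals of 1.12 to 7.49 and 1.22 to 28.4) and have names ending in _x_at. The Krt4 difference was below 0 without null 1 (−0.03) or without heterozygous 4 (−0.14). Krt76 was dim, with signals of 1.82, 4.55 and 2.49 on the null arrays, against 8.18, 2.10 and 5.48 on the heterozygous arrays.

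Of the 30 hair or epidermal keratins 7 were tested, and 0 passed. Krt10, the type I keratin of the layers above the basal layer in skin, had signals of 151, 187 and 154 on the null arrays, against 233, 226 and 340 on the heterozygous arrays. Every null array was lower, and the level was 7.49 ± 0.15 in null bladders, against 8.12 ± 0.31 in heterozygous ones (SD over 3 arrays each, difference −0.63, SE 0.24, 95% interval −1.18 to −0.08, limma adjusted p = 0.553). Krt79, a type II keratin known from the hair follicle canal in mouse skin, had 38.2, 29.98 and 39.6 on the null arrays, against 61.2, 59.3 and 47.7 on the heterozygous arrays, again with every null array lower (difference −0.47, limma adjusted p = 0.633). Krt1, the skin partner of Krt10, differed by −0.72 with overlapping groups (limma adjusted p = 0.722), and by −0.33 without null 1. Krt75, a keratin of the companion layer of the hair follicle, Krt42, Krt80 and Krt88 had differences of 0.81, 0.77, 0.55 and 0.03, with overlapping groups and limma adjusted p from 0.629 to 0.995. The median of the 7 was 0.03, and −0.26 without null 1. Without heterozygous 5 the difference of Krt80 was 0.018 and that of Krt75 0.46, and without heterozygous 6 that of Krt80 was 0.91 and that of Krt42 0.51. Without null 1 that of Krt88 was −0.26. A second probe set of Krt42, a dim one with signals of 1.58 to 63.4, gave −0.60. Krt222, outside the groups, differed by −0.83 (limma adjusted p = 0.666), by −0.47 without null 2 and by −1.28 without null 3. Its second probe set, a dim one, differed by 0.17.

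The 26 keratins left out as dim were 19 hair, 4 epidermal, 2 stress and 1 mucosal keratin, and their signals lay between 0.810 and 59.5. In 23 of them the groups overlapped. All null arrays were above all heterozygous arrays in 1, beside 4.86% of the 5458 genes left out as dim, and below them in 2, beside 5.90%. Krt2, a type II keratin of outer epidermis, had 3.28, 3.12 and 1.60 on the null arrays, against 14.7, 31.9 and 24.9 on the heterozygous arrays. Krt27, of the inner root sheath of hair, had 3.94, 1.35 and 1.18 on the null arrays, against 12.7, 35.7 and 10.7 on the heterozygous arrays. Krt77, an epidermal type II keratin, had 15.3, 29.8 and 8.49 on the null arrays, against 6.53, 6.68 and 4.91 on the heterozygous arrays. These 3 had separate groups, at signals below the 39.7 that corresponds to the filter level, and were not tested. Of all 48, Krt34 with a mean level of 5.56 in null and 5.88 in heterozygous bladders was closest below the filter, and Krt79 with 5.69 and 6.17 closest above it.

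The shift of each keratin group on single arrays was set beside lists of markers for other cells of bladder and neighbouring tissue. Heterozygous 4 was the lowest of the 6 arrays for the simple, basal and stress keratins (mean shifts of −0.45, −0.55 and −0.78 relative to the heterozygous mean). It was also the lowest for the mesothelial list (−0.97) and for genes of proteins that bind or anchor keratin filaments (−0.28). It was not the lowest for the uroplakin, intestinal, epidermal or hair shaft lists. For 13 general epithelial genes it was again the lowest (−0.33). Of these 13, 0 passed limma's test, and 10 had a difference above 0, beside 5746 of the 12735 genes tested. With an unadjusted p under 0.05 (limma) 5 were higher in null, beside 3.63% of all genes tested. Those with the smallest p were Cldn7, of tight junctions, at 1.07 and Cdh1, encoding E-cadherin, at 0.84 (limma adjusted p = 0.199 and 0.308), and the list median was 0.43. Their mean shift was 0.35, 0.38 and 0.74 on the null arrays, against −0.33, 0.11 and 0.22 on the heterozygous arrays, so the groups did not overlap. Summed signals of the list were 26789 to 31367 in null and 17587 to 22635 in heterozygous bladders. In bulk tissue, a change in the number of epithelial cells and a change in RNA per cell cannot be told apart.

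**Figure D4:**
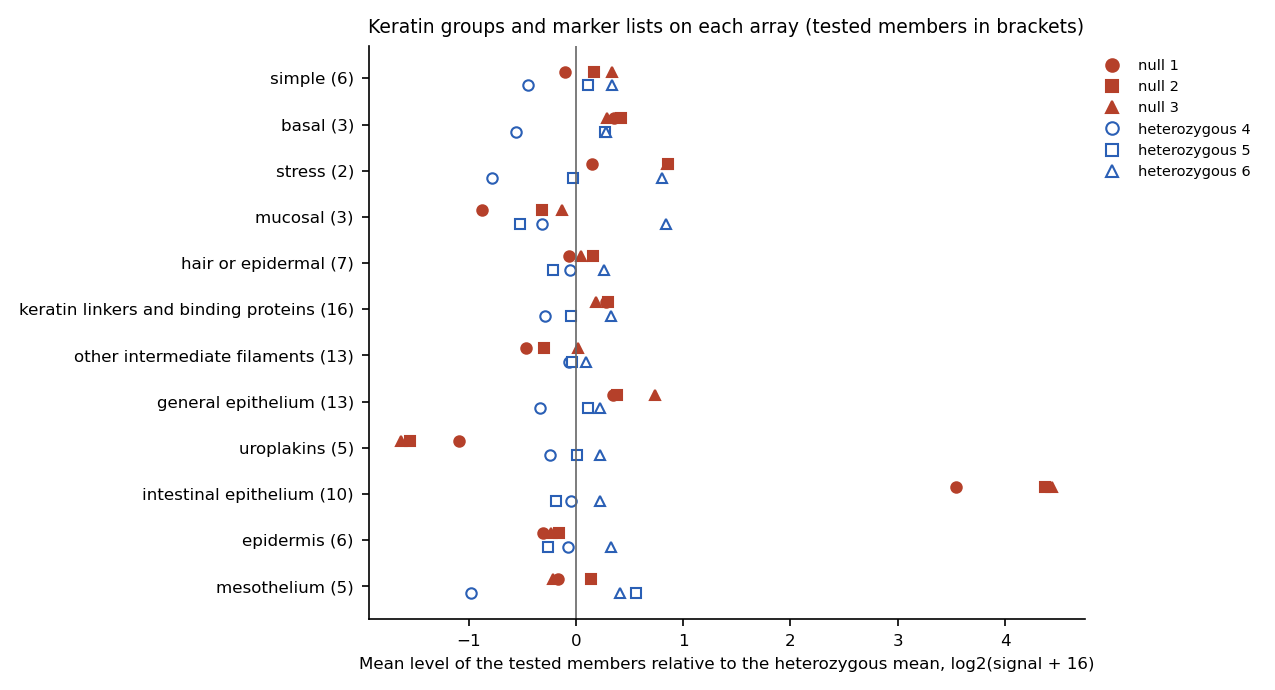
Mean level of the tested members of each keratin group and marker list on each array, relative to the mean of the 3 heterozygous arrays on the log2(signal + 16) scale; filled symbols are null and open symbols heterozygous arrays, and brackets give the number of tested members. The keratin groups overlap between genotypes except the basal one, whose lowest null shift (0.289) is just above its highest heterozygous shift (0.285); the intestinal list lies at 3.54 to 4.44 on null arrays, and the uroplakins at −1.63 to −1.09.

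With every level taken relative to the mean of these 13 genes, a scale that moved the median of all genes tested to −0.52, Krt6a had a difference of 1.70 (adjusted p = 0.0192, limma) and was the 1 keratin that passed. On that scale Krt19 had 0.66 and Krt15 0.25, while Krt8, Krt7, Krt5, Krt14 and Krt4, which had differences above 0 before, had −0.33, −0.13, −0.46, −0.18 and −0.26. Krt18 had −0.99 and Krt20 −0.83 (limma adjusted p = 0.109 and 0.184). This scale was chosen after the values had been seen.

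Genes of the intestinal epithelium, which makes Krt8, Krt18, Krt19 and Krt20, were higher on the null arrays, where Krt19 was higher and Krt18 lower. Over the 6 arrays, Pearson r with the mean of the tested intestinal genes was 0.85 for Krt19, 0.38 for Krt8, −0.21 for Krt20 and −0.82 for Krt18. For Krt6a it was 0.94. Of 13 listed genes 10 were tested and 8 rose (limma), beside 0.448% of all genes tested, among them Tff3 by 7.45 and Vil1 by 3.72. The list median was 4.21, and the list was chosen with earlier results of these data known. Summed signals were 13260 to 22476 in null and 301 to 596 in heterozygous bladders. On the heterozygous arrays the signals of the 13 markers ran from 0.901 (Fabp1, heterozygous 6) to 283 (Lgals4, heterozygous 6). Every probe set on every array had a signal above 0 (lowest 0.239, heterozygous 6), so a low signal does not by itself show expression. The part of these cells in the keratin values was not tested.

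Uroplakins are the surface proteins of umbrella cells, which also make Krt20. Upk3b was also on the mesothelial list, so its signals are in the sums of both lists. Of 5 uroplakins 1 fell, Upk2 (−3.03, adjusted p = 0.0022, limma), beside 0.0628% of all genes tested. All 5 had a difference below 0, beside 6989 of the 12735 genes tested, and the list median was −0.68. Upk1a differed by −2.36 (limma adjusted p = 0.199). All null arrays were below all heterozygous arrays for Upk2 and Upk1a, beside 7.36% of all genes tested. The groups overlapped for Upk1b, Upk3a and Upk3b. The list had summed signals of 7557 to 10480 in null and 12692 to 18751 in heterozygous bladders. Over all 6 arrays signals were 4675 to 9729 for Upk1b and 1667 to 3192 for Upk3a. On the null arrays they were 193 to 321 for Upk2 and 120 to 649 for Upk1a. Of 12 epidermal genes with a probe set 6 were tested and 0 passed, with Sbsn at 0.60 and Ivl at −0.64 and summed signals of 2768 to 3792 in null and 3327 to 3940 in heterozygous bladders. Of 7 hair shaft genes 2 were tested and 0 passed (S100a3 −0.64 and Msx2 −0.30), with summed signals of 175 to 284 in null and 271 to 319 in heterozygous bladders. Of 5 mesothelial genes 0 passed, with Msln at 1.70 and Wt1 at −1.30 and summed signals of 2962 to 4104 in null and 3298 to 7719 in heterozygous bladders. Their part in the keratin values was not tested either.

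Among proteins that bind or anchor keratin filaments, 1 of 16 tested genes rose and 0 fell (limma), beside 0.448% and 0.0628% of all genes tested. All null arrays lay above all heterozygous arrays for 4 of the 16, Eppk1 and Pkp2 among them, and below for 0. The shares of all genes tested were 6.07% and 7.36%. Eppk1, encoding epiplakin, a plakin that binds keratin networks, had signals of 12094, 7343 and 7792 on the null arrays, against 2628, 3083 and 2266 on the heterozygous arrays. The groups were far apart, with a level of 13.11 ± 0.39 in null bladders, against 11.37 ± 0.22 in heterozygous ones (SD over 3 arrays each, difference 1.74, SE 0.27, 3.34-fold, limma adjusted p = 0.0408). The call was lost with any of the 6 arrays left out (difference 1.51 to 1.87, limma adjusted p from 0.0932 to 0.153) and relative to the general epithelial genes (1.25, limma adjusted p = 0.0656). It was also lost with an offset of 1 and with no filter on dim genes (limma adjusted p = 0.0771 and 0.0799), so that it passed in 8 of 17 alternatives. Pkp2, a plakophilin of desmosomes, had signals of 2097, 2266 and 1810 on the null arrays, against 807, 747 and 1782 on the heterozygous arrays (difference 0.99, limma adjusted p = 0.519). Evpl, encoding envoplakin of desmosomes and the cornified envelope, differed by −0.83 with overlapping groups (limma adjusted p = 0.558). The median of the 16 was 0.26, beside −0.03 for all genes tested.

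Other intermediate filament genes, for other cell types and the nucleus, had a median of −0.19 over 13 tested members, and 0 passed. Ina, of neurons, differed by −1.83 and Des, of muscle, by 0.80 (limma adjusted p = 0.264 and 0.281), and both had separate groups. Of the 13, 1 had all null arrays above all heterozygous arrays and 2 had them below, beside 6.07% and 7.36% of all genes tested. Of 17 tested regulators of keratin or epithelial genes 0 passed, with a median of 0.30. Foxa1 and Ehf, factors of luminal and glandular epithelia, differed by 0.69 and 0.80 (limma adjusted p = 0.553 and 0.59). They were the 2 of the 17 with all null arrays above all heterozygous arrays, beside 6.07% of all genes tested. Grhl3 itself was the 1 with all null arrays below, beside 7.36%.

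Over the 6 arrays, the genes outside the family with levels most like Krt6a were Ergic2, Npy6r, Gmds, Clrn3 and Cldn2 (Pearson r from 0.98 to 0.99), of which Clrn3 and Cldn2 rose by 4.05 and 3.65 (adjusted p = 0.0025 and 0.0036, limma). Those most like Krt20 were 4930426D05Rik, Capn3, Rpsa, Neurl4 and Abcg4 (r from 0.99 to 1.00), none of which passed. These are the closest of all tested genes over 6 points that share their arrays, and describe these arrays only.

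Promoters are shown for Krt18 and Krt8, the partners whose ratio had separate groups in their brightest probe sets, and for Krt10, whose groups were separate. They are the 250 bases before a start site in RefSeq, assembly GRCm38.p6, on the strand of the gene. They lie at chr15:102027966-102028215 (plus strand) for Krt18, chr15:102004343-102004592 (minus strand) for Krt8 and chr11:99389365-99389614 (minus strand) for Krt10. In the gene table Krt10 spans chr11:99385254-99397449, so its window lies inside that span, before an internal start site. Capitals mark the TATA box letters TATAAA, which are in the Krt10 window alone among these 3.
Krt18: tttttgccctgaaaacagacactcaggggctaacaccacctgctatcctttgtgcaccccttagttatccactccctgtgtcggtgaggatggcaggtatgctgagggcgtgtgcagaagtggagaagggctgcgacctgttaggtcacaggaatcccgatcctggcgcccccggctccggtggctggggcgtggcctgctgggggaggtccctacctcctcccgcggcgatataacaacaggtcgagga
Krt8: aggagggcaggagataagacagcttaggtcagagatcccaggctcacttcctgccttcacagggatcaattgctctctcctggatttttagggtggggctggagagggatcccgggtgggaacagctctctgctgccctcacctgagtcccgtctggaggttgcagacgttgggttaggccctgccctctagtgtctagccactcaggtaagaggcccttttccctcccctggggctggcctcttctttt
Krt10: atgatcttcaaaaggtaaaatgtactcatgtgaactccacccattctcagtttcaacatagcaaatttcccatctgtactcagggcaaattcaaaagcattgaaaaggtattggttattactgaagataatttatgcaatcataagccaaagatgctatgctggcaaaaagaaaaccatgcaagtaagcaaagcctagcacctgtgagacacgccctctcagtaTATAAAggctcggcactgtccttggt

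Of the 48 keratins 32 had a promoter in this table; Krt6a, Krt15 and Krt19 did not. The letters TATAAA on the gene strand were in 14 of the 32 (43.8%), against 8.94% of 27025 genes with a promoter window of the same length. Among the 14 were Krt10 and Krt20, and the others were hair, epidermal or mucosal keratins that the dim filter had left out. The letters AACCNGTT, the core to which grainyhead-like factors bind, searched on both strands, were in 0 of the 32 keratin windows and in 2.0% of all windowed genes. These counts describe the letters in this window and say nothing of binding.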

How the data were processed

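The members, groups and lists were chosen with earlier results of these data known. The intensity values (signals) were deposited on a linear scale per probe set and and the submitters' processing notes name Expression Console 1.1 (Affymetrix) and PLIER 2.0 without their roles; the sources used here do not give background or normalization steps. Of 45101 probe sets, 34945 had exactly 1 gene symbol in the platform annotation, and 61 of these were keratin probe sets. A probe set shared by Krt17 and Krt14 was left out. Each gene was read from the probe set with the highest mean, as log2(signal + 16), and the dimmest 30% of genes were left out. R 4.3.3 and limma 3.58.1 (lmFit, eBayes, two-sided, no covariates) compared null with heterozygous arrays over all 12735 genes, adjusting p by Benjamini-Hochberg, with calls below 0.05. From the marker lists, called genes and up to 2 others with the smallest p could be named. The fit was tested on simulated data. Full values are given for simple, basal, stress and mucosal keratins and for hair or epidermal ones with separate groups or a small unadjusted p. Alternatives were offsets of 1 and 64, no or a stricter dim filter (50%), quantile or median scaling, averaged or unshared probe sets, array weights, trend and robust fitting, each array left out and, added after seeing the data, levels relative to general epithelial genes.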

Additional observations from a re-analysis of the deposited data

How the results depend on the processing

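Over 17 alternatives, 0 keratins were called lower in any. The count called higher was 1, Krt6a, with an offset of 64, probe sets averaged, array weights, trend and robust fitting, without heterozygous 6 (0 to 1 over the 6 arrays left out) and relative to general epithelium, where its difference was 2.07, 1.95, 2.48, 2.19, 2.59 and 1.70. It was 0 in the other 11. Of 360 values of single keratins 330 kept direction and side of the threshold and 24 changed sign, none past the test. These were Krt23 with an offset of 1, quantile scaling, median centring and array weights (0.049, 0.032, 0.018 and 0.43) and, with 1 array left out, Krt23 (−0.49 to 0.38), Krt4 (−0.14 to 0.73), Krt20 (−0.59 to 0.075), Krt88 (−0.26 to 0.23), Krt5 (−0.22 to 0.34), Krt7 (−0.056 to 0.62) and Krt14 (−0.14 to 0.52). Relative to general epithelium Krt4, Krt5, Krt7, Krt8, Krt14 and Krt88 had −0.26, −0.46, −0.13, −0.33, −0.18 and −0.46. There the simple, basal and hair or epidermal medians were −0.41, −0.18 and −0.46. The hair or epidermal median was −0.17 with no filter, −0.63 with the stricter filter, −0.32 with probe sets averaged, −0.22 with shared probe sets left out and −0.26 to 0.23 with 1 array left out. With the stricter filter the stress median was 2.19 and the mucosal median 0.23, from fewer genes. With 1 array left out the simple median was −0.25 to 0.39 and the basal median −0.14 to 0.52. The cause of these shifts was not tested. Over all genes 57 were called higher and 8 lower; the counts were 35 and 5 with an offset of 1, 38 and 5 with the stricter filter, 77 and 12 with array weights, 39 and 5 without null 2, 37 and 9 without null 3, 47 and 5 without heterozygous 5, and 69 and 345 relative to general epithelium. No paired analysis was made, because the titles name no pairing of null with heterozygous arrays.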
